A study of Mus musculus with 19 samples.

Results

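The genes described here are 10 genes of serine synthesis, folate-linked serine use and the amino acid response, chosen by gene symbol (Phgdh, Psat1, Psph, Shmt1, Shmt2, Mthfd2, Asns, Trib3, Chac1 and Sesn2) out of 53558 genes in the count tables. All 10 passed the filter on low counts that left 13986 genes to test. They were followed across 3 groups of mouse lung tumors. All mice carried the Cre-dependent alleles R26LSL-tdTomato and H11LSL-Cas9, so that a lentivirus carrying Cre switched on the red marker tdTomato and the nuclease Cas9 in the lung cells it infected. The virus also carried guide RNAs: inert guides sgNeo1/sgNT1/sgNeo2 (sgInert, 7 libraries, 3 female and 4 male), a guide to Lkb1 (sgLkb1, 5 libraries, all female) or guides to Cebpa, Cebpb and Cebpd together (sgCebpa/b/d, 7 libraries, 4 female and 3 male). After 17 weeks, tumors were microdissected and neoplastic cells were sorted as cells negative for CD45, CD31, F4/80 and Ter119, and their RNA was sequenced. Guides act through indels in the infected cells, so a tumor can hold cells with an uncut copy.

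Serine is made from a glycolytic intermediate by PHGDH, PSAT1 and PSPH in turn, and the SHMT enzymes then pass a carbon from serine to folate, which MTHFD2 oxidises in mitochondria. When amino acids run short or the ER is stressed, cells translate the transcription factor ATF4, which pairs with C/EBP family proteins on composite sites next to genes such as Asns, Trib3, Chac1 and Sesn2, and which also activates the serine synthesis genes. LKB1, encoded by Stk11 in the mouse, is a kinase upstream of AMPK, and its loss in tumors has been tied to serine and one-carbon metabolism. C/EBPα, C/EBPβ and C/EBPδ are transcription factors, and C/EBPα marks alveolar type II cells.

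Libraries held between 2760731 and 9944134 expected counts, with a median of 6028922. Stk11 ranged from 19.5 to 22.9 CPM (counts scaled by library size) in sgInert and from 7.53 to 12.5 CPM in sgLkb1, a log2 fold change of -1.24 (SE 0.17, adjusted p = 1.07e-04 by edgeR's quasi-likelihood test). The RNA of the genes cut in sgCebpa/b/d was not lower there: Cebpa was higher than in sgInert (log2 fold change 0.73, adjusted p = 0.00148), and Cebpb (1.16, adjusted p = 0.0524) and Cebpd (0.20, adjusted p = 0.742) did not pass. An indel can leave RNA in place, so these levels do not check the sgCebpa/b/d label. Sample titles carried animal numbers of an MT series (3 sgInert, 3 sgLkb1 and 4 sgCebpa/b/d libraries), of a ZR series (4 sgInert libraries) or none (2 sgLkb1 and 3 sgCebpa/b/d libraries). The numbered libraries came from 6 animals in sgInert, 2 in sgLkb1 and 2 in sgCebpa/b/d, with up to 3 libraries per animal, so the p-values measure the spread between libraries, some of which came from the same mouse. Because sgInert had no unnumbered library and the other groups no ZR library, each comparison is also given within the MT libraries, which came from 2 animals per group. All 3 unnumbered sgCebpa/b/d libraries were male and all MT sgCebpa/b/d and all sgLkb1 libraries were female, so that within sgCebpa/b/d, and among the unnumbered libraries, sex cannot be told apart from title series or virus.

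Per unit of transcript length, Psat1 and Asns were the most abundant of the 10 genes in sgInert, with median levels of 28.4 and 25.9 TPM (transcripts scaled by gene length and library size). They were followed by Shmt1 (9.72 TPM), Mthfd2 (8.59 TPM), Psph (6.73 TPM), Shmt2 (4.18 TPM), Sesn2 (3.51 TPM), Phgdh (3.29 TPM), Chac1 (1.77 TPM) and Trib3 (1.46 TPM). The only neighbours in this order whose ranges over libraries did not overlap were Asns (lowest library 21.9 TPM) and Shmt1 (highest library 11.97 TPM). In sgLkb1 the median of Mthfd2 (12.1 TPM) stood above that of Shmt1 (11.4 TPM), and in sgCebpa/b/d that of Mthfd2 (3.93 TPM) stood below that of Psph (6.62 TPM). Chac1 was the lowest of the 10 in sgCebpa/b/d, at a median of 0.13 TPM.

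None of the 10 genes passed an adjusted p of 0.05 in sgLkb1 against sgInert, where 5.78% of all genes tested did. None reached an unadjusted p under 0.05 by edgeR either, where 18.5% of all genes did, and DESeq2 and limma on log2 TPM also called 0. That unadjusted limit was met by 4 of the 10 in sgCebpa/b/d against sgInert (23.2% of all genes). In sgCebpa/b/d against sgLkb1 8 of the 10 met it (18.3% of all genes). In sgLkb1 against sgInert the fitted log2 fold changes ran from -0.21 (Shmt2) to 0.75 (Trib3). In that comparison 8 of the 10 were above 0 (48.6% of all genes were). The median was 0.26 over the 10 and -0.01 over all genes. In sgCebpa/b/d against sgInert 3 of the 10 fell, Asns, Chac1 and Mthfd2, each by more than 1 on the log2 scale. Of all genes, 10.1% passed in this comparison, 5.36% were lower at the adjusted p alone and 2.00% with the fold change limit as well. The fitted values of 9 of the 10 were below 0, with a median of -0.58, while 52.4% of all genes were above 0. The same 3 genes fell in sgCebpa/b/d against sgLkb1, where 5.96% of all genes passed, 3.12% were lower and 1.64% were lower past the fold change limit. There too 9 of the 10 were fitted below 0, with a median of -0.79, while 53.3% of all genes were above 0. These comparisons share the sgCebpa/b/d libraries. A test across the 3 groups at once called the same 3 genes, and 13.4% of all genes.

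**Figure D1:**
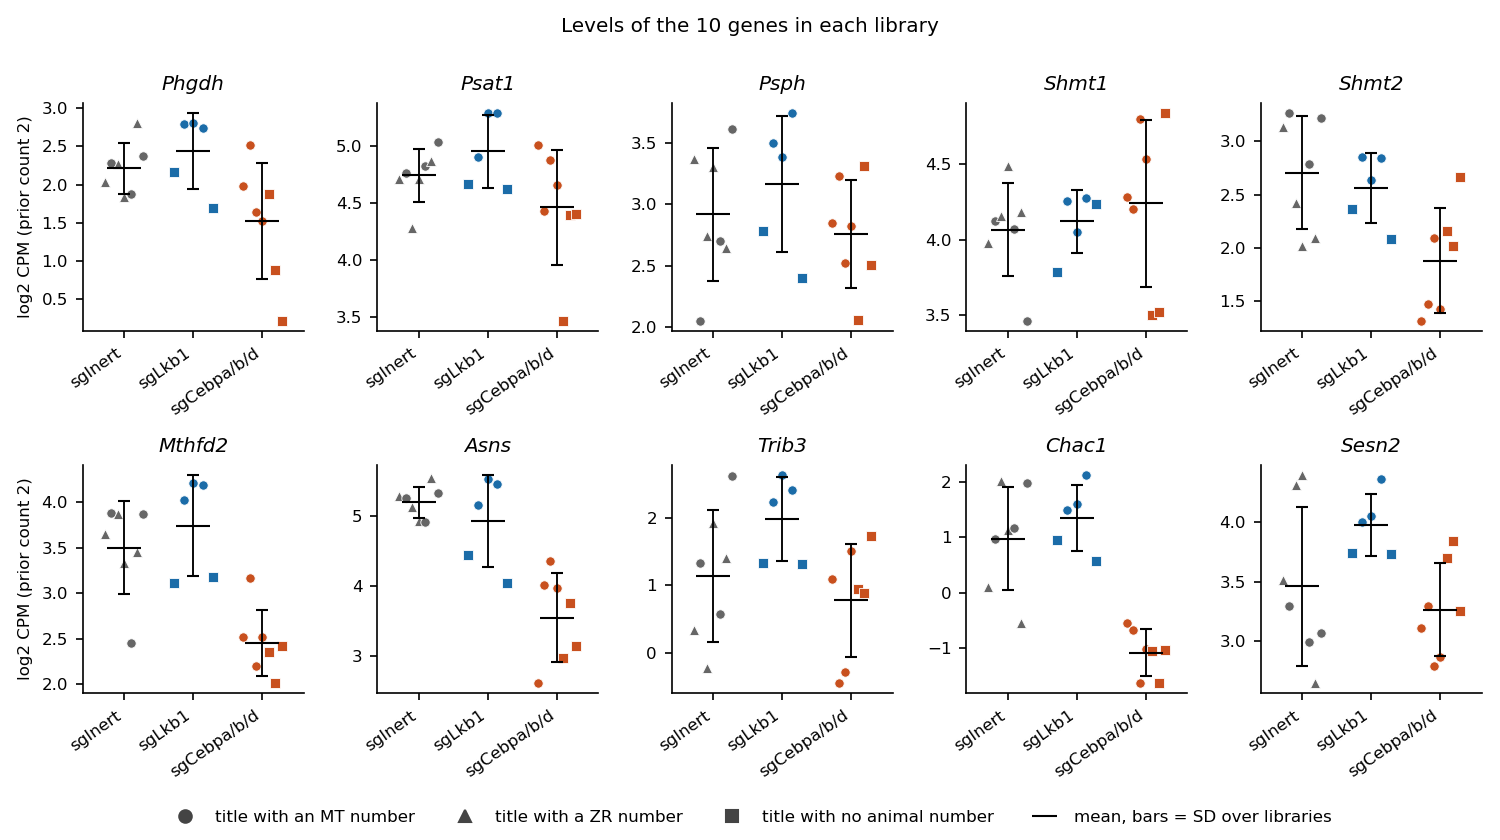
Level of each of the 10 genes in every library, as log2 CPM with a prior count of 2; each panel is a gene with its own vertical scale, each point is a library, its shape gives the title series, and bars give the mean and SD. The 7 sgCebpa/b/d libraries lie below all 7 sgInert libraries for Asns, and below all 5 sgLkb1 libraries for Chac1.

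The serine synthesis enzymes did not pass in any comparison. Phgdh encodes the dehydrogenase that commits 3-phosphoglycerate to serine. It measured 3.26 (lowest), 4.51 (median) and 6.66 (highest) CPM in sgInert, 4.15, 6.58, 6.67, 6.39 and 2.91 CPM in the sgLkb1 libraries, and 0.836, 2.80 and 5.41 CPM in sgCebpa/b/d. All 3 groups overlapped. The log2 fold change was 0.27 (95% interval -0.48 to 1.02) in sgLkb1 against sgInert, -0.62 (-1.33 to 0.10) in sgCebpa/b/d against sgInert and -0.89 (-1.64 to -0.13, adjusted p = 0.180) in sgCebpa/b/d against sgLkb1. The 3 sgLkb1 libraries with an MT number lay between 6.39 and 6.67 CPM and above the 3 MT sgInert libraries, which reached 4.87 CPM, but within the MT libraries the log2 fold change of 0.62 had an adjusted p of 0.424.

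Psat1, the aminotransferase of the next step, had medians of 26.8 CPM in sgInert, 29.5 CPM in sgLkb1 and 21.1 CPM in sgCebpa/b/d. The sgLkb1 libraries measured 25.0, 29.5, 38.7, 38.6 and 24.3 CPM, and the ranges were 19.1 to 32.4 CPM in sgInert and 10.7 to 31.9 CPM in sgCebpa/b/d. The interval of the log2 fold change in sgLkb1 against sgInert was -0.19 to 0.65. Psph, the phosphatase that releases serine, had medians of 6.36 CPM in sgInert, 10.2 CPM in sgLkb1 and 6.78 CPM in sgCebpa/b/d. Its sgLkb1 libraries stood at 6.58, 10.97, 10.2, 13.1 and 4.95 CPM, and it ranged from 3.83 to 11.9 CPM in sgInert and from 3.84 to 9.64 CPM in sgCebpa/b/d. Its log2 fold changes were 0.26, -0.19 and -0.44 in sgLkb1 against sgInert, sgCebpa/b/d against sgInert and sgCebpa/b/d against sgLkb1, and the groups overlapped in each. Differences within these intervals could not be detected at this spread and depth.

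The SHMT enzymes and MTHFD2 differed among themselves. Shmt1 encodes the cytosolic serine hydroxymethyltransferase. It was the only one of the 10 with a higher fitted level in sgCebpa/b/d than in the other groups, and neither difference passed: 0.24 (95% interval -0.20 to 0.67) against sgInert and 0.20 (-0.27 to 0.67) against sgLkb1. Its libraries ranged from 10.7 to 22.1 CPM in sgInert and from 11.03 to 28.3 CPM in sgCebpa/b/d, and read 13.5, 18.8, 16.2, 19.1 and 18.5 CPM in sgLkb1.

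Shmt2, its mitochondrial counterpart, measured 3.73, 6.58 and 9.29 CPM (lowest, median, highest) in sgInert and 2.17, 3.72 and 6.02 CPM in sgCebpa/b/d. The sgLkb1 libraries stood at 4.85, 6.90, 5.92, 6.88 and 3.93 CPM. The groups overlapped, and the log2 fold change of -0.88 (SE 0.29) in sgCebpa/b/d against sgInert had an adjusted p of 0.0569. In the MT libraries the 4 sgCebpa/b/d libraries lay between 2.17 and 3.96 CPM, below the 3 sgInert libraries (6.58 to 9.29 CPM) and the 3 sgLkb1 libraries (5.92 to 6.90 CPM). There the differences passed, at -1.58 against sgInert (adjusted p = 0.0101; 4.25% of genes were lower) and -1.24 against sgLkb1 (adjusted p = 0.0420; 3.30% of genes were lower). With the MT libraries summed per animal, 2 against 2, neither passed (-1.61, adjusted p = 0.0821, and -1.28, adjusted p = 0.185). In the unnumbered libraries, 3 male sgCebpa/b/d against 2 female sgLkb1, the log2 fold change was 0.06 (adjusted p = 0.975). The difference between these values, 1.31, did not pass as an interaction over all genes (adjusted p = 0.376).

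Mthfd2, the mitochondrial dehydrogenase and cyclohydrolase that is usually low in adult tissue and high in tumors, fell in sgCebpa/b/d. It measured 5.16, 12.3 and 14.4 CPM (lowest, median, highest) in sgInert, 8.31, 15.99, 18.2, 18.0 and 8.74 CPM in the sgLkb1 libraries, and 3.72, 5.02 and 8.68 CPM in sgCebpa/b/d. One sgInert library, at 5.16 CPM, lay within the sgCebpa/b/d range, and the other sgInert libraries were at 9.78 CPM or more. The log2 fold change was -1.10 (SE 0.26, adjusted p = 0.00796) against sgInert and -1.36 (SE 0.28, adjusted p = 0.00377) against sgLkb1. The difference between sgLkb1 and sgInert was 0.27 (95% interval -0.30 to 0.84). Within the MT libraries the difference from sgInert was -0.89 and no longer passed (adjusted p = 0.161), while that from sgLkb1 was -1.52 (adjusted p = 0.0162). With libraries summed per animal and the unnumbered ones summed per virus, Mthfd2 passed against neither sgInert (-0.96, adjusted p = 0.137) nor sgLkb1 (-1.27, adjusted p = 0.125), and with the MT libraries summed per animal it passed against neither (adjusted p = 0.402 and 0.122).

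Of the amino acid response genes, Asns and Chac1 fell in sgCebpa/b/d, and Trib3 and Sesn2 did not pass. Asns encodes asparagine synthetase, and its promoter carries one of the best-studied sites for ATF4 and C/EBP proteins. It measured 29.9, 37.7 and 46.1 CPM (lowest, median, highest) in sgInert and 5.79, 13.2 and 20.1 CPM in sgCebpa/b/d, so that the highest sgCebpa/b/d library lay below the lowest sgInert library. A gap of this kind in this direction was present in 2.09% of all genes. The fall was 2.94-fold (log2 fold change -1.55, SE 0.25, adjusted p = 2.79e-04). The sgLkb1 libraries measured 21.5, 35.4, 45.8, 43.6 and 16.2 CPM, which spans from the upper sgCebpa/b/d values to the sgInert maximum, and the difference from sgCebpa/b/d was -1.38 (SE 0.27, adjusted p = 0.00262). In the MT libraries the log2 fold changes were -1.29 against sgInert (adjusted p = 0.00811) and -1.50 against sgLkb1 (adjusted p = 0.00339), and in the unnumbered libraries -0.97 against sgLkb1 (adjusted p = 0.202). Asns also passed against both groups with the MT libraries summed per animal (adjusted p = 0.0163 and 0.00868).

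Chac1 encodes an enzyme that degrades glutathione and is a sensitive reporter of ATF4 activity. It was close to undetected in sgCebpa/b/d, with 7 counts over all 7 libraries: 2 libraries had no count, 4 had 1 count and 1 had 3. A count of 0 allows up to 3 counts. The sgInert libraries had between 2 and 15 counts and the sgLkb1 libraries 14, 16, 18, 41 and 8. In CPM this was 0.360 to 3.71 in sgInert, 1.17 to 4.03 in sgLkb1 and 0 to 0.362 in sgCebpa/b/d, so that sgCebpa/b/d lay below every sgLkb1 library, a gap found in 2.87% of all genes, and touched only the lowest sgInert library. The summed counts per depth were 11.3 times as high in sgInert as in sgCebpa/b/d (67 against 7 counts, 95% interval 5.17 to 29.1) and 15.3 times as high in sgLkb1 (97 against 7 counts, 7.14 to 39.0), with intervals that cover counting error only. The fitted log2 fold changes, which depend on the prior count at such levels, were -3.45 (adjusted p = 0.00105) against sgInert and -3.75 (adjusted p = 0.00104) against sgLkb1. They were of the same size in the MT libraries, at -3.45 (adjusted p = 0.0121) and -3.83 (adjusted p = 0.00699). With libraries summed per animal and the unnumbered ones summed per virus, the adjusted p was 0.0483 against sgInert and 0.0695 against sgLkb1, and with the MT libraries summed per animal 0.0810 and 0.0772. Against sgInert, sgLkb1 differed by 0.30 (95% interval -0.87 to 1.47).

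Trib3 encodes a pseudokinase that ATF4 and CHOP induce and that restrains them in return. Its counts were low and its spread wide: 0.530 to 5.85 CPM in sgInert, 0.409 to 3.01 CPM in sgCebpa/b/d, and 2.19, 4.39, 5.92, 5.01 and 2.18 CPM in sgLkb1. The log2 fold change was 0.75 in sgLkb1 against sgInert (95% interval -0.38 to 1.88) and -1.28 in sgCebpa/b/d against sgLkb1 (-2.42 to -0.14, adjusted p = 0.203). Sesn2, a leucine sensor that restrains mTORC1, measured 5.94, 9.47 and 20.7 CPM (lowest, median, highest) in sgInert, 13.04, 15.7, 16.2, 20.3 and 12.96 CPM in sgLkb1 and 6.59, 9.20 and 14.0 CPM in sgCebpa/b/d. Over all libraries it did not pass (0.42, adjusted p = 0.478, in sgLkb1 against sgInert). Within the MT libraries the 3 sgLkb1 values (15.7 to 20.3 CPM) lay above the 3 sgInert values (7.61 to 9.47 CPM) and the 4 sgCebpa/b/d values (6.59 to 9.50 CPM). There Sesn2 was 1.05 higher than in sgInert on the log2 scale (adjusted p = 0.0230; 3.61% of genes were higher) and sgCebpa/b/d was 1.15 lower than sgLkb1 on that scale (fitted value -1.15, adjusted p = 0.00897). The change of that last difference in the unnumbered libraries, 1.02, did not pass (adjusted p = 0.269). Summed per animal, the MT libraries gave 1.13 against sgInert (adjusted p = 0.106) and -1.13 for sgCebpa/b/d against sgLkb1 (adjusted p = 0.123). The ZR sgInert libraries, at 5.94 to 20.7 CPM, covered the whole range of the other groups.

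**Figure D2:**
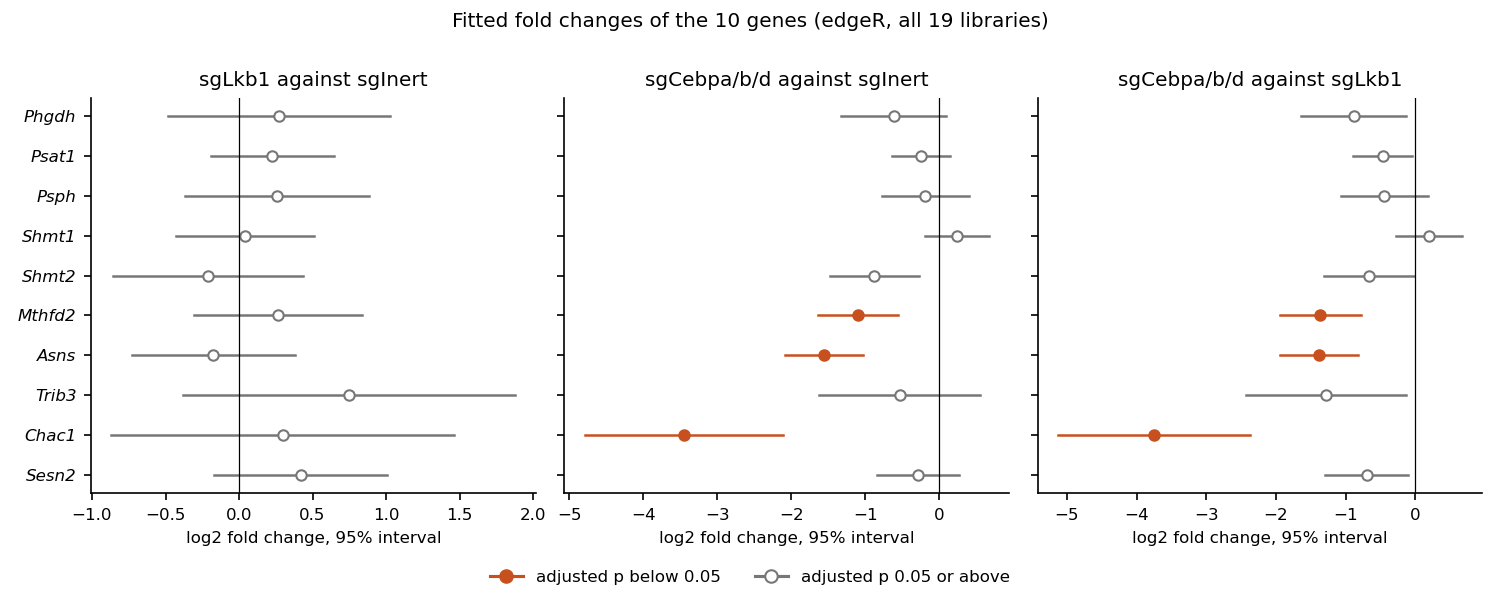
Fitted log2 fold changes of the 10 genes (points) with 95% intervals (lines) in the 3 comparisons; filled orange points passed an adjusted p of 0.05. No point is filled in sgLkb1 against sgInert, and Mthfd2, Asns and Chac1 are filled in both sgCebpa/b/d comparisons.

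Within sgLkb1, 9 of the 10 genes were lower in both unnumbered libraries than in all 3 MT libraries; the exception was Shmt1. This order was present in 11.6% of all genes, and the opposite one in 12.5%. Asns, for instance, averaged 41.6 CPM in the MT libraries and 18.8 CPM in the unnumbered ones, and Mthfd2 17.4 and 8.52 CPM. Within sgCebpa/b/d, where 10.7% of all genes had this order and 11.5% the opposite one, Psat1 alone of the 10 had it and none had the opposite one. Without the 2 unnumbered sgLkb1 libraries Asns was 0.19 higher on the log2 scale in sgLkb1 than in sgInert (adjusted p = 0.834) in place of 0.17 lower, and no gene of the 10 passed in that comparison. Which property of the animals or of the preparation the title series stands for is not given in the sources used here, and its part in the values was not tested beyond these subsets.

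**Figure D3:**
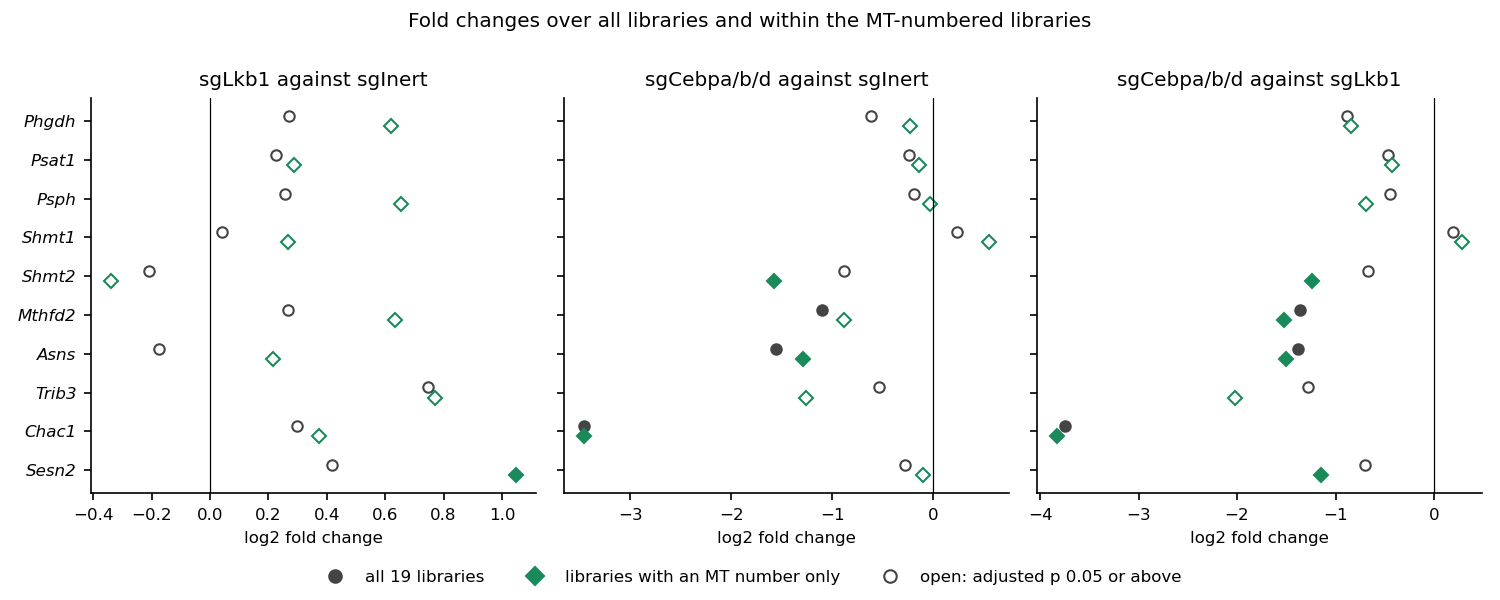
Log2 fold changes of the 10 genes over all 19 libraries (dark circles) and within the MT-numbered libraries (green diamonds), in the 3 comparisons, each on its own horizontal scale; filled symbols passed an adjusted p of 0.05. Sesn2 is filled in sgLkb1 against sgInert within the MT libraries only, and Shmt2 is filled within the MT libraries in both sgCebpa/b/d comparisons.

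The composite C/EBP-ATF element TGATGNAA was found, on either strand, between 250 bases before and 50 bases after the start site of 3 of the 10 genes, Asns, Chac1 and Trib3. In RefSeq (GRCm38.p6) 4.51% of 27025 genes, and 3.97% of all 32851 promoters of this length, held this element. In Asns its 8 bases began 23 bases before the RefSeq start, inside the gene span of the GENCODE annotation (chr6:7675169-7693254, minus strand), which starts further upstream. In Chac1 they began 193 bases before the RefSeq start, which lies inside the GENCODE span (chr2:119351229-119354381, plus strand). In Trib3 they began 14 bases after the RefSeq start, which lies upstream of the GENCODE span (chr2:152337422-152344032, minus strand), and so does the element. Among 16 other ATF4 target genes with a promoter in the table, 7 held the element. Of these, Nupr1 and Vldlr fell in sgCebpa/b/d against sgInert, Atf3 (log2 fold change 0.55), Jdp2 (-0.09), Pck2 (-0.33) and Pycr1 (-0.70) did not pass, and Fgf21 was too low to test. The other targets that fell, Atf5, Cebpg, Gdf15 and Cth, were not among the 7. The stretches of all 10 genes are shown so that the matches can be compared, each read along its gene's strand with the element in capitals, and Vldlr and Jdp2 are shown at an alternative start.
Asns (chr6:7693214-7693243, minus strand): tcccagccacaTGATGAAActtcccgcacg
Chac1 (chr2:119351038-119351067, plus strand): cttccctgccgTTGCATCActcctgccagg
Trib3 (chr2:152344028-152344057, minus strand): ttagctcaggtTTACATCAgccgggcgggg
Nupr1 (chr7:126625562-126625591, minus strand): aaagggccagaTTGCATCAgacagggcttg
Vldlr (chr19:27216809-27216838, plus strand): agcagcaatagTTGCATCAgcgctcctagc
Atf3 (chr1:191183425-191183454, minus strand): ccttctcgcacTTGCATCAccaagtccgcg
Fgf21 (chr7:45615611-45615640, minus strand): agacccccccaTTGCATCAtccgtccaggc
Pck2 (chr14:55540152-55540181, plus strand): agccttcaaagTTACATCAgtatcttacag
Jdp2 (chr12:85599372-85599401, plus strand): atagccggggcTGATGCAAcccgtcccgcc
Pycr1 (chr11:120643833-120643862, minus strand): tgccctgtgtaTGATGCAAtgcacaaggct
Chac1, Nupr1, Vldlr, Atf3 and Fgf21 shared the 8 letters TTGCATCA, and Jdp2 and Pycr1 held its reverse complement, so that genes that fell and genes that did not pass carried the same letters. The C/EBP site TTGCNNAA (12.2% of genes) and the cAMP response element TGACGTCA (2.03% of genes) were in no promoter of the 10 genes, and the antioxidant response element TGACNNNGC (14% of genes) was in those of Phgdh, Psph, Asns and Sesn2. Mthfd2, which fell, held none of the 4 motifs in this window. These are matches of letters and not measured binding.

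The genes around the 10 in the same pathways were read from fixed lists. None of the 9 genes for ATF4, its upstream kinases and phosphatase subunits passed in any of the 3 comparisons over all libraries by edgeR. An unadjusted p under 0.05 was reached by 0 of them in sgLkb1 against sgInert (18.5% of all genes). It was reached by 2 in sgCebpa/b/d against sgInert (23.2% of all genes) and 1 in sgCebpa/b/d against sgLkb1 (18.3% of all genes). Within the MT libraries 1 of the 9 was lower in sgCebpa/b/d against sgInert (4.25% of all genes) and 1 against sgLkb1 (3.3% of all genes). Atf4 itself ranged from 91.9 to 167.7 CPM in sgInert, 113.3 to 145.9 CPM in sgLkb1 and 94.1 to 147.8 CPM in sgCebpa/b/d. Its log2 fold change in sgCebpa/b/d against sgInert was -0.08 over all libraries (adjusted p = 0.789) and -0.64 within the MT libraries (adjusted p = 0.00217). Because ATF4 is controlled mainly through its translation, its RNA is not a measure of its activity. Ddit3, which encodes CHOP, had medians of 4.19, 7.43 and 4.34 CPM in sgInert, sgLkb1 and sgCebpa/b/d and passed in no comparison.

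Of 15 other ATF4 target genes tested, 6 fell and 0 rose in sgCebpa/b/d against sgInert, against 5.36% of all genes lower. The 3 with the smallest p were Nupr1, a stress-induced chromatin protein (log2 fold change -2.07, adjusted p = 9.66e-08), Vldlr, a lipoprotein receptor (-1.93, adjusted p = 7.29e-06), and Cth, which makes cysteine from cystathionine (-1.83, adjusted p = 1.16e-05). Against sgLkb1, 6 of the 15 were also lower, where 3.12% of all genes were, and 0 were higher. Nupr1 (-1.57), Vldlr (-1.57) and Cth (-1.35) again had the smallest p. Within the MT libraries 4 and 6 of the 15 were lower against sgInert and sgLkb1, where 4.25% and 3.3% of all genes were. In sgLkb1 against sgInert 0 of the 15 passed by edgeR and 3 had an unadjusted p under 0.05, where 18.5% of all genes did. The median log2 fold change of the 15 was -0.14. Like the 10 genes, the lists were chosen with earlier results of these libraries known.

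Among 11 amino acid transporters tested, 2 were higher in sgLkb1 than in sgInert, where 2.81% of all genes were higher: Slc38a1, a glutamine and serine carrier (log2 fold change 2.68, adjusted p = 0.0243), and Slc7a1, an arginine carrier (0.70, adjusted p = 0.0312). Against sgLkb1, 5 of the 11 were lower in sgCebpa/b/d, where 3.12% of all genes were, and 0 were higher. The smallest p was that of Slc7a5, the large neutral amino acid carrier (-1.64, adjusted p = 8.07e-04). Against sgInert, Slc7a5 alone of the 11 fell, at -1.19 (adjusted p = 0.00499), where 5.36% of all genes were lower. Within the MT libraries 5 of the 11 were higher in sgLkb1 than in sgInert (3.61% of all genes). There 7 of the 11 fell in sgCebpa/b/d against sgLkb1 (3.3% of all genes). Of 13 genes for cytosolic aminoacyl-tRNA synthetases and tRNA export, 3 were lower (Xpot, Aars and Iars) and 1, Wars, was higher (0.98, adjusted p = 2.93e-06) in sgCebpa/b/d than in sgInert. In this comparison 5.36% of all genes were lower and 10.1% passed in either direction. Wars is also induced by interferon.

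In the folate cycle the largest fall was that of Aldh1l2, the mitochondrial enzyme that oxidises formyl-tetrahydrofolate downstream of MTHFD2. It measured 15.6 to 58.2 CPM in sgInert, 29.8 to 45.8 CPM in sgLkb1 and 0 to 6.52 CPM in sgCebpa/b/d, and its log2 fold change was -3.26 (adjusted p = 3.61e-05) against sgInert. Of 18 folate genes tested, 3 were lower in this comparison (Aldh1l2, Aldh1l1 and Ggh), where 5.36% of all genes were, and 0 were higher. The enzyme Mthfd1, the cytosolic relative of Mthfd2, was the only one of the 18 to pass in sgLkb1 against sgInert, at -0.47 (adjusted p = 0.0270). Of 11 genes of glycine cleavage and serine use, Sptlc2, which joins serine to palmitoyl-CoA for sphingolipids, fell in sgCebpa/b/d against sgInert by 0.66 on the log2 scale (adjusted p = 5.35e-04). Of 11 methionine cycle and DNA methyltransferase genes, Gnmt, the glycine methyltransferase, was lower (-2.03, adjusted p = 0.00384), and Dnmt1, Dnmt3a and Dnmt3b did not pass in any comparison.

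**Figure D4:**
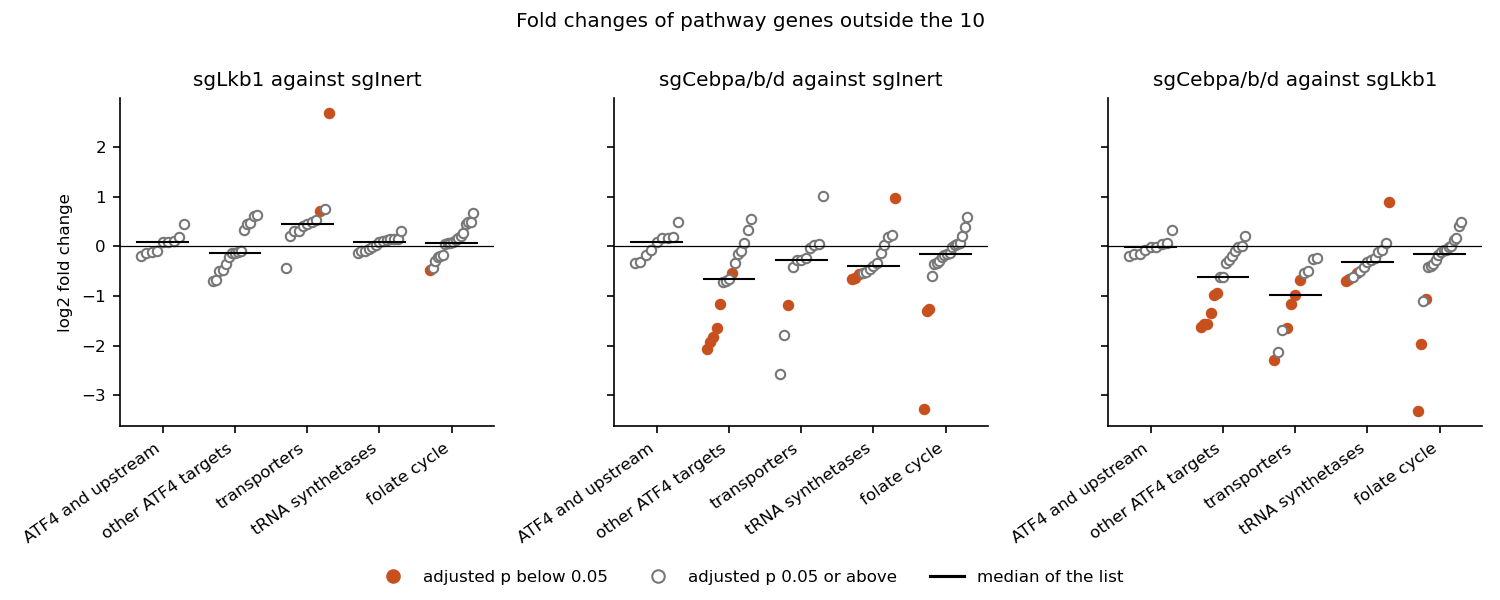
Log2 fold changes of genes outside the 10, grouped by pathway list, in the 3 comparisons; each point is a gene, orange points passed an adjusted p of 0.05 and black lines are list medians. Passing points lie mainly below 0 in the sgCebpa/b/d panels for other ATF4 targets and folate genes, and the 2 passing transporters in sgLkb1 against sgInert lie above 0.

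The 13 genes of the ER unfolded protein response did not pass in sgCebpa/b/d against sgInert by edgeR, where 4 had an unadjusted p under 0.05 (23.2% of all genes did). In sgLkb1 against sgInert 2 of the 13, Edem1 (-0.70) and Dnajc3 (-0.42), were lower, where 5.78% of all genes passed in either direction. All 13 were fitted below 0 there, with a median of -0.22, while 48.6% of all genes were above 0. An unadjusted p under 0.05 was reached by 5 of the 13 (18.5% of all genes). Of 11 relatives in the sestrin, tribbles and CHAC families and amino acid sensors, 1 passed in any comparison, Deptor, an mTOR inhibitor, at -0.65 in sgLkb1 against sgInert (adjusted p = 0.00745). Of 10 cell cycle genes, 0 passed by edgeR in any comparison over all libraries. In sgCebpa/b/d against sgLkb1, 5 of these 10 had an unadjusted p under 0.05 (18.3% of all genes did), and the median log2 fold change was 1.08. Within the MT libraries 5 of these 10 were higher in that comparison (3.68% of all genes) and 3 were lower in sgLkb1 against sgInert (3.36% of all genes). In the unnumbered libraries the direction was the opposite: in sgCebpa/b/d against sgLkb1 0 of these 10 passed, 0 were fitted above 0, and the median was -0.41. Of 10 immediate early and heat shock genes, 5 rose in sgCebpa/b/d against sgInert over all libraries (led by Fos at 1.52), where 10.1% of all genes passed in either direction. In sgLkb1 against sgInert 1 was higher (Fos, 1.18) and 3 were lower (Hspa1b, Hspa1a and Hspb1), where 5.78% of all genes passed in either direction. The summed level of these 10 genes was 2089 to 4817 CPM in sgInert, 4229 to 6711 CPM in sgLkb1 and 4472 to 10742 CPM in sgCebpa/b/d.

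Markers of other cells moved with the groups. The summed level of 6 fibroblast markers was 10.7 to 142.2 CPM in sgInert, 94.5 to 243.6 CPM in sgLkb1 and 59.5 to 230.3 CPM in sgCebpa/b/d. Of the 6, 2 (Dcn and Col3a1) passed as higher in each group against sgInert. Of all genes, 5.78% passed in either direction in sgLkb1 and 10.1% in sgCebpa/b/d. Within the MT libraries 4 and 5 of the 6 were higher in sgLkb1 and sgCebpa/b/d, where 3.61% and 4.3% of all genes were. The summed level of 4 endothelial markers was 5.36 to 36.8, 30.0 to 128.9 and 9.73 to 172.3 CPM in sgInert, sgLkb1 and sgCebpa/b/d. In sgCebpa/b/d against sgInert 3 of the 4 were higher (10.1% of all genes passed in either direction). Within the MT libraries 0 of the 3 endothelial markers tested passed in that comparison, 0 were fitted above 0, and the median log2 fold change was -0.10. The 7 immune markers summed to at most 17.9, 60.1 and 62.4 CPM, and none of the 4 tested passed by edgeR. An unadjusted p under 0.05 was reached by 2 of the 4 in each group against sgInert (18.5% of all genes in sgLkb1 and 23.2% in sgCebpa/b/d). The 7 epithelial and alveolar type II markers summed to 40272 to 45901 CPM in sgInert, 24092 to 32120 CPM in sgLkb1 and 17953 to 32105 CPM in sgCebpa/b/d, so every library was epithelial by these markers. Of the 7, 3 (Lamp3, Cxcl15 and Sftpc) were lower in each group against sgInert. Of all genes, 5.36% were lower in sgCebpa/b/d, and 5.78% passed in either direction in sgLkb1. No marker of the 4 lists reached even an unadjusted p under 0.05 in sgCebpa/b/d against sgLkb1 over all libraries (edgeR), where their median log2 fold changes lay between -0.07 and 0.28; the endothelial median was -1.03 within the MT libraries. The part of cell mixture in the differences between groups was not tested, and in sorted bulk samples fewer cells of a type and less RNA per cell cannot be told apart.

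Over the 19 libraries, the gene whose log2 CPM followed Mthfd2 most closely, among 10621 genes with an average above 2, was Zmat3 (Pearson's r = 0.854), then Scd1 (0.824) and Fitm2 (0.816). For Asns they were Reep6 (0.891), Ang (0.885) and Vldlr (0.884), and for Chac1 App (0.870) and Dusp16 (0.845). These values describe libraries that share the difference between groups.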

How the data were processed

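RNA-seq libraries of sorted neoplastic cells (19 in 3 groups) were analysed from the gene tables the authors deposited. By the methods and the submitters' processing notes, reads were aligned to mm10 with STAR 2.6.1d and quantified with RSEM 1.2.30, which gives each gene an expected count, a TPM value and an effective length. The authors deposited expected counts that are not normalized, and TPM values scaled by gene length and library. Deposited tables of the authors' own DESeq2 1.26.0 comparisons and normalized counts were not used.

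Expected counts were rounded and tested with edgeR 4.0.16 (TMM, filterByExpr with a minimum count of 10 and a total of 15, quasi-likelihood test, R 4.3.3) in one model of 19 libraries with no covariate. P-values were adjusted by Benjamini-Hochberg over 13986 genes, and 0.05 was the threshold. CPM used TMM-scaled depths, and log2 CPM a prior count of 2. Standard errors were derived from the fold change and F. The comparisons were tested on simulated data with known changes. Groups came from the virus label. Named genes were the 10 members, Stk11, Atf4 and Ddit3, up to 3 genes per list with the smallest p, and the 3 most similar genes to each member that passed (1 of these, and 1 allele shared by all mice, are not reported here); Cebpa, Cebpb and Cebpd were added as targeted genes, and Dnmt1, Dnmt3a, Dnmt3b and the 10 genes with printed promoters were named after values were seen. The members and lists were chosen with earlier results of these data known. Alternatives covered other size factors, DESeq2 1.42.0, limma 3.58.1 on log2(TPM + 1), count filters, gene lengths, sex, title series, replicate numbers, subsets of libraries, summed animals and each library left out. No pair of libraries agreed within sampling noise (chi-square per gene 6.91 to 75.2). Depth limits the low genes: Chac1 and Trib3 rest on few counts, and ratios of counts carry exact 95% intervals.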

Additional observations from a re-analysis of the deposited data

Results flagged for a closer look

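In 30 checks of the highest and lowest library of each group for each of the 10 genes, 3 libraries stood apart by Dixon's criterion, which chance meets in about 1 of 20 groups. Psat1 in sgInert replicate 3 was 4.28 on the log2 CPM scale, with the next library at 4.71. Psat1 in sgCebpa/b/d replicate 5 was 3.46, with the next at 4.39. Mthfd2 in sgInert replicate 5 was 2.45, with the next at 3.34, and this library is the sgInert library that lay within the sgCebpa/b/d range.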

How the results depend on the processing

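Leaving out each library in turn gave 0 calls among the 10 genes in sgLkb1 against sgInert, 3 to 4 in sgCebpa/b/d against sgInert, 3 in sgCebpa/b/d against sgLkb1 and 3 to 4 across the groups. Within the MT libraries the counts were 1 in sgLkb1 against sgInert (Sesn2), 3 in sgCebpa/b/d against sgInert (Asns, Chac1 and Shmt2), 5 in sgCebpa/b/d against sgLkb1 and 5 across groups (Asns, Chac1, Mthfd2, Sesn2 and Shmt2). There 3.61% of all genes were higher and 3.36% lower in sgLkb1 against sgInert. The shares higher and lower were 4.3% and 4.25% in sgCebpa/b/d against sgInert, and 3.68% and 3.3% in sgCebpa/b/d against sgLkb1. With libraries summed per animal and those without a number summed per virus, which leaves fewer samples, 1 gene (Asns) passed in sgCebpa/b/d against sgLkb1 and 1 across groups. With the MT libraries summed per animal (2 animals per group, chosen after seeing the data), 0 passed in sgLkb1 against sgInert and 1 (Asns) in each sgCebpa/b/d comparison and across groups, and Asns was at 0.22 in sgLkb1 against sgInert. With only the 5 unnumbered libraries, a subset chosen after seeing the data, 0 passed in sgCebpa/b/d against sgLkb1 by edgeR. Of all genes in that fit 1.99% were higher and 2.15% lower. Asns passed against sgInert in 16 of 16 alternatives and Chac1 in 13 of the 14 that tested it, all but the MT libraries summed per animal; a minimum count of 20, or a fit of sgCebpa/b/d with 1 other group, filtered Chac1 out. Mthfd2 lost its call against sgInert with title series in the model (adjusted p = 0.176), within the MT libraries, by library or by animal, without the unnumbered libraries (0.0631), with animals summed as above (0.137) and with the replicate number as a block (0.0806), while Shmt2 gained one in 5 alternatives, DESeq2 among them (adjusted p = 0.0356). The replicate block left 2 calls in sgCebpa/b/d against sgInert, 3 in sgCebpa/b/d against sgLkb1 and 0 in sgLkb1 against sgInert; libraries with the same number did not deviate together (correlations -0.147 to 0.232 over 17 pairs, 15 at or under 0.1, and 5 of 34 best with their own number), so the numbers were not taken as pairs. Genes that had not passed changed sign in some alternatives: in sgLkb1 against sgInert, Psat1 (-0.019) and Shmt1 (-0.020) with gene lengths as offsets, Shmt1 with sex in the model (-0.14), with the block (-0.040) and when single libraries were left out (-0.043 to 0.13), and Asns with title series in the model (0.11), within the MT libraries (0.21), without all unnumbered libraries (0.19) and without those of sgLkb1 (0.19); in sgCebpa/b/d against sgInert, Psph on log2 TPM (0.015) and with title series (0.12), and Sesn2 with title series (0.11); in sgCebpa/b/d against sgLkb1, Shmt1 on log2 TPM (-0.020), and Psph (0.10) and Shmt2 (0.059) in the unnumbered libraries. The causes were not tested. Over all genes, leaving aside the fits without single libraries, the calls ranged from 300 to 1258 in sgLkb1 against sgInert (809 in the reported fit), 419 to 1819 in sgCebpa/b/d against sgInert (1412) and 155 to 1136 in sgCebpa/b/d against sgLkb1 (833).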
